A study of Mus musculus with 2 samples.

Results

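Mir210, Mir320, Mir328 and Mir423 are microRNA genes known for their links to stress of the heart, and they were chosen by gene symbol. These are 4 of the 2202 microRNA genes counted. All 4 had at least 10 counts in each library, as did 373 genes in all, which are called detected below. The libraries came from the hearts of female mice 4 days after birth, of the strain B6CASTF1/J, a hybrid of a C57BL/6J and a CAST/EiJ parent. There were 2 libraries, 1 for each of 2 animals (replicate 1 from the animal numbered 3, replicate 2 from the animal numbered 4), under a single donor entry. RNA shorter than 30 nt was selected. Both hearts belonged to 1 group, for which the labels name no treatment, and no stressed, hypoxic, failing or older heart was analysed here. The data therefore give the levels of these genes in the newborn heart and the gap between the hearts, and hold no contrast for stress.

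A microRNA gene is transcribed into a hairpin, which is cut to a pair of arms of which 1 is usually loaded into Argonaute. The loaded strand then pairs, mainly through its seed (bases 2 to 8 from its 5′ end), with messenger RNAs and lowers their output. As background, miR-210 is the microRNA most closely tied to hypoxia, induced by hypoxia-inducible factors and known to target the iron-sulphur cluster scaffold ISCU. The microRNA miR-320 has been studied in cardiac ischaemia and reperfusion, with the small heat shock protein Hsp20 as a target. In atrial fibrillation miR-328 has been linked to electrical remodelling through L-type calcium channel subunits, and miR-423-5p is known as a circulating marker of heart failure.

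The mature arms below are shown because the seed decides which transcripts a microRNA can pair with, and whether another microRNA of the same heart could pair with the same ones. Capitals mark the seed, and the sequences are those of RefSeq on GRCm38.p6, whose table matched 2 of the 4 genes, Mir210 and Mir423.
miR-210-5p: aGCCACUGcccaccgcacacug
miR-210-3p: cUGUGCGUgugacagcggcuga
miR-423-5p: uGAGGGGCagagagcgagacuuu
miR-423-3p: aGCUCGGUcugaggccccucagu

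No seed was common to any of these 4 arms. Among the 1738 mature mouse sequences of the table, no other one carried the seed of miR-210-5p, miR-210-3p or miR-423-3p at bases 2 to 8. The seed of miR-423-5p recurred in 1 other arm, miR-6921-5p (uGAGGGGCaugagguaggaagc), whose gene Mir6921 had 1 count in replicate 1 and 0 in replicate 2. A count of 0 allows a level of up to 0.530 CPM in replicate 2 (3 counts of the total). The counts are per gene, so which arm of Mir6921 gave that count was not measured.

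The hairpins, which are the units counted, are shown with both arms in capitals to mark which part of each gene the short reads can come from. The hairpin of Mir210 is 110 nt long with 69.1% GC, and that of Mir423 is 109 nt long with 51.4% GC.
Mir210: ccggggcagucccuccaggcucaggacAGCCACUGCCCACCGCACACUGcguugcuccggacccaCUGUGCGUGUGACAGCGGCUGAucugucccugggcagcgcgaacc
Mir423: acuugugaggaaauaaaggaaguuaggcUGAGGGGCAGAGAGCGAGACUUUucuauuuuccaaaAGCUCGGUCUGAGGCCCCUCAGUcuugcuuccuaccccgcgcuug

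The deposited counts are per hairpin, so the shares of the 5p and 3p arms were not measured. The hairpins of Mir320 and Mir328 are 82 and 97 nt long with 63.4% and 67.0% GC. None of the 4 hairpins shared a stretch of 20 nt, on either strand, with a transcript of any other gene in GENCODE M21, whereas 78 of the 373 detected genes shared one with another microRNA gene. Reads that match several places are in no gene's count. The genome outside annotated transcripts was not searched.

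The genes lie on 4 chromosomes in 4 different settings (mm10). Mir423 (ENSMUSG00000065518.2, chr11:77078064-77078172, minus strand) lies in intron 1 of Nsrp1, which encodes a splicing regulator of nuclear speckles, on the same strand and 263 nt from that gene's annotated start. Mir320 (ENSMUSG00000065528.1, chr14:70443510-70443591, plus strand) lies outside other genes, 63 nt from the start of Polr3d, a subunit gene of RNA polymerase III, which runs the opposite way. Mir328 (ENSMUSG00000070130.1, chr8:105308364-105308460, minus strand) lies within Elmo3 but on the opposite strand, with 12 nt of the hairpin over a coding exon of that gene and the rest over the intron before it. Mir210 (ENSMUSG00000065551.1, chr7:141221384-141221493, minus strand) lies outside other genes, and the nearest annotated start, that of Rassf7, is 5524 nt away.

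Among the 373 detected genes, 266 lie within another gene on the same strand, 24 only within a gene on the opposite strand, and 83 outside genes, so Mir328 belongs to the smallest of these classes. The median level was 31.6 CPM (counts scaled to 1000000 own-strand counts of the library) in that class, 72.1 CPM in the same-strand class and 91.4 CPM outside genes. The median distance to the nearest start of a gene of another kind was 6430 nt over the detected genes. Mir320 was 1 of 30 detected genes within 100 nt of such a start, and Mir423 and Mir320 were among 71 within 1000 nt.

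Mir423 held the highest level of the 4 genes, Mir210 the lowest, and the order Mir423, Mir320, Mir328, Mir210 was the same in both hearts. Mir423, the gene linked to heart failure, had 31702 counts in replicate 1 and 18979 in replicate 2, or 4940 and 3352 CPM (mean 4146 ± 1123, SD, n = 2). It stood at place 37 of all genes in replicate 1 and 45 in replicate 2. Mir320, the gene studied in ischaemia, had 13403 and 8984 counts, or 2089 and 1587 CPM (mean 1838 ± 355, SD, n = 2), at places 57 and 62. Both genes were higher in replicate 1 on this scale, and the libraries of one did not overlap those of the other.

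Mir328, the gene linked to calcium channels, had 6698 counts in replicate 1 and 5054 in replicate 2, or 1044 and 893 CPM (mean 968 ± 107, SD, n = 2), at places 76 and 79. Mir210, the hypoxia gene, had 3920 and 4638 counts, or 611 and 819 CPM (mean 715 ± 147, SD, n = 2), at places 93 and 83. Mir210 was the 1 gene of the 4 with more counts in replicate 2, although that library was the shallower. The values of Mir328 and Mir210 did not overlap, but in replicate 2 they lay closer together than the SD of either gene, and the ranges of mean ± SD overlapped. By the planned rule, the same order in both libraries and ranges of the libraries that do not overlap, each pair of neighbours in the order differed. By the stricter range of mean ± SD, which was not planned, Mir328 and Mir210 were not separated, whereas Mir423 and Mir320, and Mir320 and Mir328, were.

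**Figure D1:**
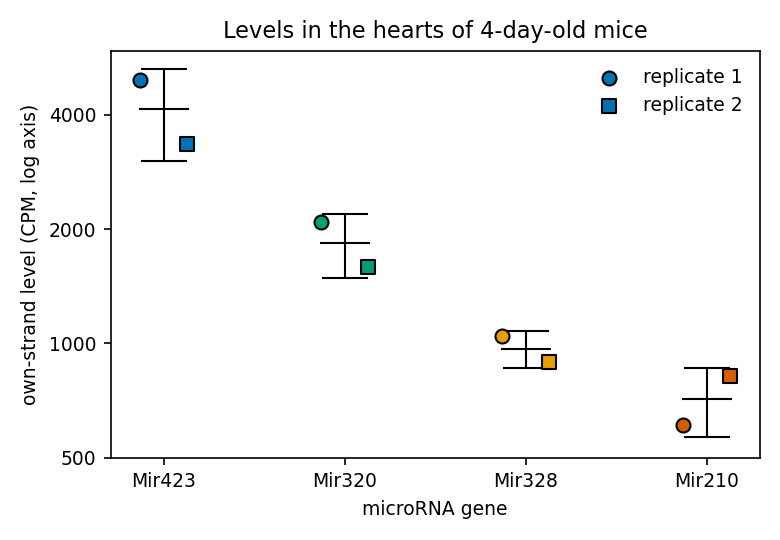
Own-strand level in CPM (log axis) of the 4 microRNA genes, with circles for replicate 1, squares for replicate 2, and a bar with whiskers for the mean ± SD (n = 2). The levels step down from Mir423 (mean 4146) to Mir210 (mean 715), and Mir210 is the gene whose square lies above its circle.

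Set per 100 nt of hairpin, the order was the same: 4532 and 3075 CPM for Mir423, 2547 and 1935 for Mir320, 1076 and 920 for Mir328, and 555 and 745 for Mir210, in replicates 1 and 2. All 4 genes were well above the median detected gene, which held 75.2 CPM. Mir423 was at or above 88.7% of the detected genes by mean level, Mir320 83.9%, Mir328 79.6% and Mir210 77.5%. Multi-mapped reads are missing from the 78 detected genes that share a stretch with another gene. These shares, and the places given above, may therefore set the 4 genes too high. They were also 4 of the 89 detected genes that reached 500 CPM in each library. In whole hearts, fewer cells of a type and less RNA per cell cannot be told apart.

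In shares of counts, counting error was small beside the gap between the hearts. Under the TMM scaling described below, the gaps of Mir320 and Mir328 were smaller, and counting error was not small beside them. The share of Mir423 was 0.494% in replicate 1, with an exact 95% interval (Clopper-Pearson) from 0.489 to 0.499, against 0.335% (0.330 to 0.340) in replicate 2. For Mir210 the shares were 0.0611% (0.0592 to 0.0630) and 0.0819% (0.0796 to 0.0843). Together the 4 genes held 0.868% of replicate 1 (0.861 to 0.876) and 0.665% of replicate 2 (0.658 to 0.672), a mean of 0.767% ± 0.144 (SD, n = 2). These intervals cover counting error only and leave out the spread between hearts and preparations. They treat each read as an independent molecule, so they may be too narrow where several reads come from 1 molecule.

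Each gene's share of the sum of the 4 was also compared. Mir210 supplied 7.03% of the sum in replicate 1 and 12.3% in replicate 2, against 56.9% and 50.4% for Mir423. Mir320 supplied 24.1% and 23.9%, and Mir328 12.0% and 13.4%. The share of Mir320 was nearly the same in both hearts, that of Mir423 was larger in replicate 1, and those of Mir210 and Mir328 were larger in replicate 2.

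No counts were placed on the strand opposite to any of the 4 genes in either library, an upper limit of 0.467 CPM in replicate 1 and 0.530 CPM in replicate 2. This included Mir328, whose opposite strand carries Elmo3, an engulfment gene. Opposite-strand counts were also 0 in both libraries for 340 of the 373 detected genes. The 1 microRNA gene annotated within 10000 nt of any of the 4, Gm27320, lies 464 nt from Mir328 on the same strand and had 0 counts in both libraries.

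For the gap between the hearts, counts were scaled by TMM, a factor per library that centres most genes, and the log2 ratio of replicate 1 over replicate 2 was taken with 0.5 added to each count. With 1 library on each side this gap has no replicate check, and no p-value is given. A gene was counted as differing where the ratio passed 2-fold, which 44 of the 373 detected genes did (11.8%), 13 of them higher in replicate 1 and 31 in replicate 2. Under scaling by total counts that split was 28 to 20. Of the 4 genes, 0 passed 2-fold, which with so few genes is no departure from that background.

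Mir210 had the largest gap of the 4, with a log2 ratio of −0.76 (95% counting interval −0.82 to −0.69), or 1.69-fold higher in replicate 2. This was larger than the gap of 82.0% of the detected genes. Mir423 had a ratio of 0.23 (0.20 to 0.25), or 1.17-fold higher in replicate 1. Mir320 at 0.06 (0.03 to 0.10) and Mir328 at −0.11 (−0.16 to −0.05) differed by 1.05-fold and 1.08-fold, gaps larger than those of 7.51% and 13.9% of detected genes. The median absolute log2 ratio over the detected genes was 0.39, so Mir210 lay above that midpoint and the other 3 below it.

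**Figure D2:**
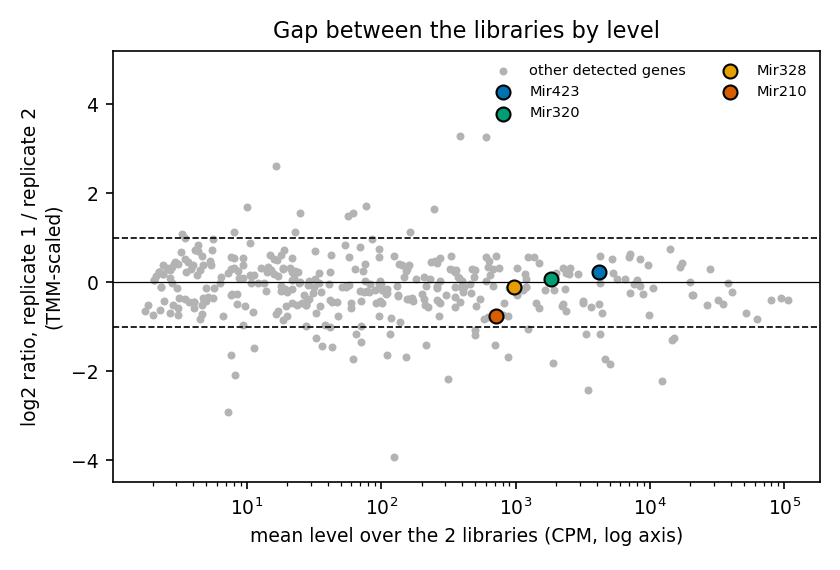
TMM-scaled log2 ratio of replicate 1 over replicate 2 (vertical axis) against the mean level in CPM (log axis) for the 373 detected genes, with the 4 genes in colour and dashed lines at 2-fold. Mir423, Mir320 and Mir328 sit within 0.23 of 0, and Mir210 lies at −0.76, inside the line.

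The size of these gaps, and for Mir328 also the sign, depends on the scaling. The median log2 ratio of the detected genes was −0.09 under TMM and 0.24 under total counts, and the members moved with it: under total counts Mir423 was at 0.56, Mir320 at 0.40, Mir328 at 0.23 and Mir210 at −0.42. Mir328 thus changed sign, while Mir210 was higher in replicate 2 under each scaling tried and Mir423 and Mir320 were higher in replicate 1. Relative to the median of the detected genes, a value that the scaling does not touch, Mir423 stood at 0.32, Mir320 at 0.16, Mir328 at −0.01 and Mir210 at −0.66 on the log2 scale.

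**Figure D3:**
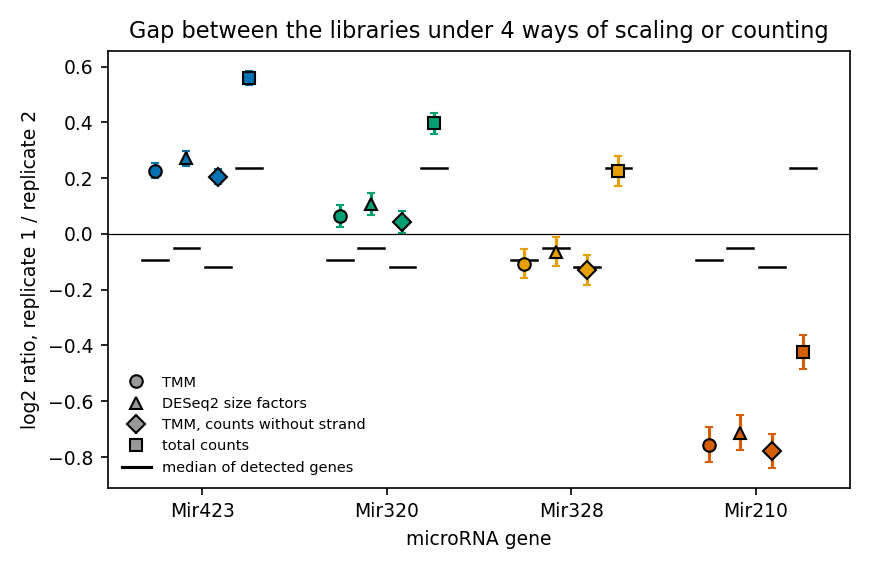
Log2 ratio of replicate 1 over replicate 2 for the 4 genes under TMM, DESeq2 size factors, TMM on counts without strand, and total counts; whiskers are the 95% counting interval and black bars the median of the detected genes under the same setting. Total counts lift the genes and the median together (Mir328 from −0.11 to 0.23), and Mir210 lies below the median in every setting shown.

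Ratios between the genes within a library need no scaling. Mir423 outnumbered Mir210 8.09-fold in replicate 1 (95% counting interval 7.82 to 8.36) and 4.09-fold in replicate 2 (3.96 to 4.23), a 1.98-fold change between the hearts. Mir320 outnumbered Mir210 3.42-fold and 1.94-fold, and Mir328 outnumbered it 1.71-fold (1.64 to 1.78) and 1.09-fold (1.05 to 1.13). The 3 pairs without Mir210 changed less. Mir423 over Mir320 was 2.37 and 2.11, Mir320 over Mir328 was 2.00 and 1.78, and Mir423 over Mir328 was 4.73 and 3.76, changes of 1.12-fold, 1.13-fold and 1.26-fold. Of the 6 pairs, 0 changed by over 2-fold, against 25.8% of the 69378 pairs of detected genes. The pairs share genes, so the 6 are not separate observations.

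The GC content of the hairpin was high in 3 of the 4 genes. Mir210, at 69.1%, was above 96.0% of the detected genes in GC, Mir328 above 93.0% and Mir320 above 89.8%, whereas Mir423 was near the middle, above 50.4%. The mature arms, from which short reads can come, have 68.2% (5p) and 63.6% (3p) GC in Mir210, and 56.5% (5p) and 65.2% (3p) in Mir423. The ranking by hairpin need not hold for the arms. The gap between the libraries moved with GC and also with level. By quartile of GC from lowest to highest, the median log2 ratio of the detected genes was −0.21, −0.10, −0.07 and 0.10. By quartile of mean level from lowest to highest it was 0.11, −0.10, −0.11 and −0.14. The highest GC quartile had the lowest median level, so GC and level were not separated here. Mir210, Mir320 and Mir328 fall in that GC quartile, from 57.4% GC up. Of its 94 genes, 3 had a lower ratio than Mir210. The levels of Mir210, Mir320 and Mir328 were far above that quartile's median of 25.9 CPM. In the highest quartile of mean level, which holds all 4 genes, 15 of 94 had a lower ratio than Mir210. Among all detected genes, 12.3% had a lower ratio than Mir210. The part of GC in the members' levels and gaps was not tested.

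**Figure D4:**
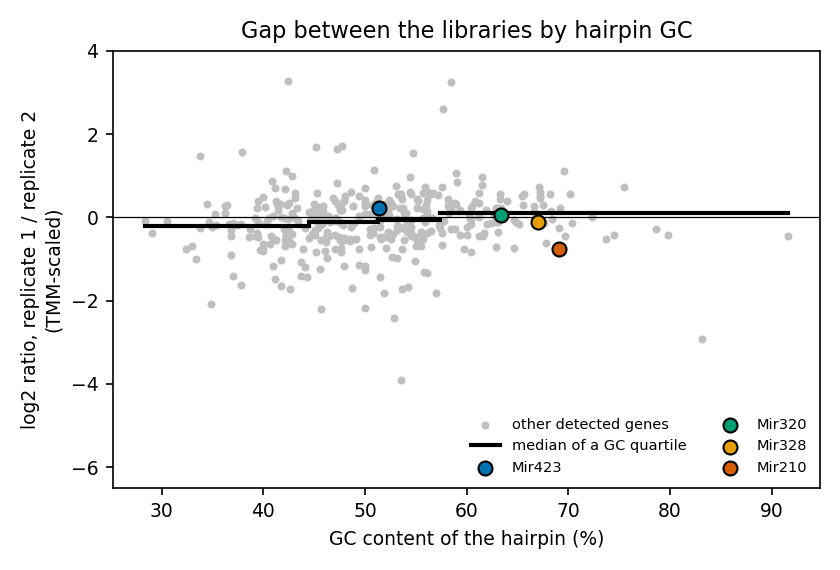
TMM-scaled log2 ratio of replicate 1 over replicate 2 against the GC content of the hairpin in percent for the 373 detected genes, with the 4 genes in colour and black bars for the median of each GC quartile. The bars rise from −0.21 to 0.10, and Mir210, at 69.1% GC, lies at −0.76, below the bar of its quartile.

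The genes nearest to each of the 4 in level in both libraries were found by Euclidean distance in log2(CPM + 0.5) over the 2 libraries. Mir210 lay nearest to Mir10a (698 and 924 CPM) and Mir10b (525 and 720 CPM), microRNA genes of the Hox clusters, and then to Mir872 (786 and 864 CPM). Mir10a and Mir10b had log2 ratios of −0.74 and −0.79, close to that of Mir210, which largely follows from their choice by level in both libraries. Nearest to Mir423 were Mir107 (4690 and 3772 CPM), which shares a 20-nt stretch with another gene, Mir214 (5595 and 2969 CPM) and Mir127 of the imprinted Dlk1-Dio3 region (6733 and 3717 CPM). Mir320 lay nearest to Mir541 (2380 and 1630 CPM), Mir20a (2042 and 1828 CPM) and Mir106b (1741 and 1572 CPM). For Mir328 they were Mir425 (961 and 840 CPM), the p53 target Mir34a (1055 and 1002 CPM) and Mir181c (1050 and 1015 CPM). With 2 libraries such likeness says little beyond equal levels.

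Other microRNA genes linked to hypoxia, ischaemia, rhythm or heart failure were taken from a list of 32, of which 29 were detected. Of these 29, 13 had a higher mean level than Mir423, 3 lay between Mir423 and Mir210, and 13 lay below Mir210. Those below include Mir24-1, Mir24-2, Mir26a-1, Mir26a-2, Mir103-1, Mir103-2, Mir199a-2, Mir1a-2 and Mir133a-1, which share a 20-nt stretch with another gene. Multi-mapped reads are left out of their counts, so where the 4 genes stand in the list was not settled. The highest were Mir126a, an endothelial gene (62420 ± 14977 CPM, SD, n = 2), Mir23a (28059 ± 8564 CPM) and Mir322 (26636 ± 2466 CPM). The median of the 29, of which 12 share such a stretch, was 1028 CPM, close to the level of Mir328. Of the 32, 15 share a 20-nt stretch with another gene, among them Mir23a and every listed copy of miR-1 and miR-133, and their order against the 4 genes leaves out multi-mapped reads.

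Of the 29, 6 passed 2-fold between the hearts, all higher in replicate 2, and 23 did not. Over all detected genes 44 of 373 passed (11.8%), 31 of them higher in replicate 2, and under total counts 20 of 48 were higher in replicate 2. The 6 were Mir26a-2 (log2 ratio −3.92), Mir21a (−2.21), a gene linked to fibrosis and hypertrophy, the myosin intron gene Mir499 (−1.83), Mir195a (−1.68), Mir22 (−1.31) and Mir30d (−1.26). Mir26a-2 shares a 20-nt stretch with another gene, so its counts (122 in replicate 1 and 1298 in replicate 2) leave out multi-mapped reads. Under total counts Mir22 (−0.98) and Mir30d (−0.93) came inside 2-fold. The ratios of Mir210 (−0.76) and Mir328 (−0.11, but 0.23 under total counts) had the sign of these 6, and those of Mir423 (0.23) and Mir320 (0.06) had the other sign. Under TMM, 163 of the 373 detected genes had a ratio above 0, so both signs were common.

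Markers of the heart's cell types place these values. The cardiomyocyte genes Mir208a, Mir208b and Mir499, which lie in myosin genes, summed to 20993 CPM in replicate 1 and 19146 in replicate 2, but they did not move together: Mir208a held 10883 and 6019 CPM, and Mir499 held 2653 and 7487 CPM. The endothelial gene Mir126a (51829 and 73011 CPM) and the smooth muscle genes Mir143 and Mir145a (47055 and 60331 CPM) were higher in replicate 2, as Mir210 was. The sum of the 3 erythroid genes (788 and 300 CPM) and the skeletal muscle gene Mir206 (718 and 58.5 CPM) were higher in replicate 1, as Mir423, Mir320 and Mir328 were on the CPM scale. On that scale the median log2 ratio of the detected genes was 0.24, so most of them lay on the same side. Under TMM, Mir328 was at −0.11. The 4 leukocyte genes summed to 1301 and 872 CPM, with Mir155 (810 and 465 CPM) and Mir142 (240 and 87.4 CPM) higher in replicate 1, Mir223 (83.1 and 148 CPM) higher in replicate 2, and Mir150 at 168 and 171 CPM. The liver gene Mir122 held 95.7 ± 13.4 CPM (SD, n = 2). The 4 epithelial genes summed to 534 and 593 CPM, of which Mir200c (420 and 284 CPM) was higher in replicate 1 and Mir203 (85.6 and 219 CPM), Mir200b (27.0 and 58.5 CPM) and Mir205 (1.40 and 31.8 CPM) were higher in replicate 2. Of the 6 neuronal genes 4 were at 0 in both libraries, but all 6 have 20 nt in common with some other microRNA gene. Their counts therefore leave out multi-mapped reads and do not measure how much of these microRNAs was present. The part of these cell types in the gaps of the 4 genes was not tested.

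Replicate 1 held 6417302 own-strand counts over microRNA genes and replicate 2 held 5662222, from 14450527 and 13495259 reads. Multi-mapped reads, which are in no gene's count, made up 39.6% and 43.2% of them.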

How the data were processed

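Small RNA from 2 hearts of 1 group was sequenced. Per the deposited descriptions, the files hold microRNA quantifications on mm10 with annotation M21. The values the authors deposited are raw counts per microRNA gene in 3 columns (both strands, own strand, opposite strand, an inference from the layout), while aligner, counter and trimming were not given in the sources used here. Rows that name no gene (unmapped, multi-mapped, outside genes, ambiguous) stayed out of library sizes: 55.6% of the reads in replicate 1 and 58.0% in replicate 2.

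All 2202 identifiers matched GENCODE M21. The own-strand column was used, which held 84.0% and 82.8% of stranded counts. This share is no measure of antisense reads. The column without strand totalled less than the own-strand column, 5193667 and 4484557 counts, so the stranded columns do not split it. The gene Gm25301, with 3 and 0 own-strand counts, alone held 664363 and 609930 opposite-strand counts. Levels are CPM of its total. Ratios used TMM factors of 1.12 and 0.891 (edgeR 4.0.16, R 4.3.3), computed on genes with at least 10 counts in the sum, and exact conditional binomial 95% intervals, tested on simulated data. Shares carry Clopper-Pearson 95% intervals. Alternatives were total counts, DESeq2 1.42.0 size factors, counts without strand, a pseudocount of 5, other count filters and single libraries. The planned analysis held no significance test, because there is 1 group. The libraries differed by more than sampling noise (chi-square 933 per degree of freedom), so they are not 1 library deposited again. They count as 2 replicates because the labels number different animals, and their spread may in part be technical.

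Named genes were the 4 members, the 3 detected genes nearest to each, arms sharing a seed, microRNA genes within 10000 nt, and from the list of 32 the 3 highest and those past 2-fold. The members and lists were chosen with earlier results of these data known. Python 3.11.15, numpy 2.4.6, pandas 2.3.3, scipy 1.17.1 and matplotlib 3.10.9 were used.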

Additional observations from a re-analysis of the deposited data

How the results depend on the processing

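The mean levels of the 4 genes moved by less than their SD with TMM library sizes. Either library alone, which with 2 libraries cannot move a mean by 1 SD, gave 3352 to 4940 CPM for Mir423, 1587 to 2089 for Mir320, 893 to 1044 for Mir328 and 611 to 819 for Mir210. Counts without strand left their counts as they were but lowered the library totals, so the mean levels rose to 894 CPM for Mir210, 2292 for Mir320 and 1208 for Mir328, beyond 1 SD, and to 5168 for Mir423, within it. Scaling by total counts moved each log2 ratio outside its counting interval, to −0.42 for Mir210, 0.40 for Mir320, 0.23 for Mir328 and 0.56 for Mir423. DESeq2 size factors moved Mir320 to 0.11 and Mir423 to 0.27, and the other 2 ratios stayed inside their intervals, as did all 4 with counts without strand and with a pseudocount of 5. None of the 4 passed 2-fold in any setting run. The number of genes past 2-fold was 44, and from 34 to 48 under the alternatives other than the loosest filter. With genes of at least 1 count in either library it was 280 of 787, since low counts give large ratios. No paired analysis was possible because there is 1 group. The lowest count of the 4 genes in a library was 3920, and with 2 libraries the spread between hearts is known only roughly.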
